A study of Mus musculus with 10 samples.

Results

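Cholesterol is the starting material of every steroid hormone of the adrenal cortex, and the genes described here are those that make it, take it up, store it and move it inside the cell. The group was set by name, as a list of 37 genes, and not by a cut on measured values, although earlier results of these data were known. It holds 7 genes of the mevalonate arm, 11 of the sterol arm, 5 that control sterol regulatory element binding proteins (SREBPs), 5 of uptake and ester storage, and 9 of transport and efflux. A gene was followed by its brightest probe paired with that gene alone, and 34 of the 37 genes had one, out of 19661 genes measured. Acat2, Idi1 and Soat1 had none and were not analysed here.

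Whole adrenal RNA came from 5 mice labelled CREMKO (Crem-/-, here KO) and 5 labelled WT, one biotin-labelled Affymetrix array per mouse. Crem encodes a transcription factor, named for its modulation of genes with cAMP response elements. All 10 mice had the mixed background 129Pas x C57Bl/J and were 8 weeks old, untreated, and killed at 0 h circadian time. The labels do not say which part of the gene was disrupted. Batches were given by the labels: KO 1, KO 2 and WT 1 formed batch 1, KO 3 and KO 4 batch 2, KO 5, WT 2, WT 3 and WT 4 batch 3, and WT 5 batch 4. The level of a gene is its RMA value in log2 units, a summary of probe brightness in which a step of 1 stands for a ratio of 2. Every difference is KO minus WT in the same unit, and levels of different genes were not set against each other.

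Cholesterol synthesis starts from acetyl-CoA. The mevalonate arm builds farnesyl diphosphate, and the sterol arm joins farnesyl units into squalene, closes the rings and trims lanosterol to cholesterol. When membrane sterol is low, SCAP carries SREBP precursors out of the endoplasmic reticulum, and the released transcription factor raises genes of synthesis and uptake. When sterol is plentiful, the INSIG proteins hold SCAP back. Rodent adrenal cells take much of their cholesterol from high density lipoprotein through the scavenger receptor SR-BI, keep it as esters in droplets, and free it with hormone-sensitive lipase for transport to mitochondria. Corticotropin drives these steps through cAMP.

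The promoters of these genes were searched for short motifs known from cAMP and sterol signalling. RefSeq promoter windows (GRCm38.p6, 250 bases before to 50 after a transcription start, both strands searched) were at hand for 29 of the 37 genes, as 38 windows. Fdps, Fdft1, Sqle, Scarb1, Npc1, Stard4, Abcg1 and Tspo had no window at hand and were not searched. The cAMP response element TGACGTCA was in the windows of 0 of 29 genes, against 2.03% of all 27025 genes with a window and 2.54% of protein-coding genes. Its core TGACG, which also lies inside the longer element, was in 12 of 29 (41.4%), against 23% of all genes and 26.2% of protein-coding genes. The CCAAT box, which the SREBP partner NF-Y binds, was in 25 of 29 (86.2%), against 41.1% and 42.3%. All 9 genes of the sterol arm with a window held a CCAAT box. A sterol regulatory element core, TCACNCCAC, was in Hmgcs1 and Stard3 (6.9%), against 1.44% of all genes. Genes with several windows had more chances of a match. Per window, TGACG was in 31.6% of the 38 and 20.8% of all 32851. Counted the same way, the CCAAT box was in 68.4% of the 38 and 37.4% of all 32851. These are matches of letters, not sites shown to be bound.

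The windows below are shown because their genes carry the results that follow: Hmgcs1, Cyp51, Sc5d and Insig1 spanned wide ranges between the mice and hold the TGACG core, and Dhcr7 and Osbp had the smallest p-values among the genes that were lower in KO. The core did not mark the variable genes: Lipe, Pmvk, Mvd and Srebf1 varied more than Cyp51 and had no TGACG in their windows. Each is the 250 bases before a start, 5′ to 3′ on the strand of the gene, with the matches to TGACG, TCACNCCAC and CCAAT (or their reverse complements) in capitals.
Hmgcs1 (chr13:119690101-119690350, plus strand): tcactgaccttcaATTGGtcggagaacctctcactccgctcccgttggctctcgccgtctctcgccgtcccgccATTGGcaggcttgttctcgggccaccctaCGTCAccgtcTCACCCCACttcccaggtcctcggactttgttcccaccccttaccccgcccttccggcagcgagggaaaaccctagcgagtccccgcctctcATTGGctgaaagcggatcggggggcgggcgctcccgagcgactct
Cyp51 (chr5:4104698-4104947, minus strand): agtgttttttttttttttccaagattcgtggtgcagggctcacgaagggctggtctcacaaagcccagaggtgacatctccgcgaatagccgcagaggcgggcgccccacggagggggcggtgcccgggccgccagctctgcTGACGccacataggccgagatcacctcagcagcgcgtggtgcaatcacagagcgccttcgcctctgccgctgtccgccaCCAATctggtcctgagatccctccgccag
Sc5d (chr9:42264301-42264550, minus strand): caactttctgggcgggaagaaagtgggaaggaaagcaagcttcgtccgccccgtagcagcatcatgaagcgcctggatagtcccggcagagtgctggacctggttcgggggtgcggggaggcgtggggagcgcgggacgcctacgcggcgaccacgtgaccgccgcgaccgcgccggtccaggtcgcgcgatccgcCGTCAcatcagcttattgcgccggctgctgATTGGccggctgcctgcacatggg
Insig1 (chr5:28071162-28071411, plus strand): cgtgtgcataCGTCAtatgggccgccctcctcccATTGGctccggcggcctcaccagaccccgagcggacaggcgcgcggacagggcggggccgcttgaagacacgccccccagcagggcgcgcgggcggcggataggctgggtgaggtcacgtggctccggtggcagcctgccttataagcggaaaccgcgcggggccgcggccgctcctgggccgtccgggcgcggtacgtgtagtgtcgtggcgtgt
Dhcr7 (chr7:143829964-143830213, plus strand): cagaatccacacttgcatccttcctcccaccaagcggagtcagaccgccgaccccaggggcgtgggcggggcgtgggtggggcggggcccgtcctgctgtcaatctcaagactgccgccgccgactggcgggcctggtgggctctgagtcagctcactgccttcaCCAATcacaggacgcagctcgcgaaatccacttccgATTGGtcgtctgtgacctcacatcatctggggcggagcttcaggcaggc
Osbp (chr19:11965594-11965843, plus strand): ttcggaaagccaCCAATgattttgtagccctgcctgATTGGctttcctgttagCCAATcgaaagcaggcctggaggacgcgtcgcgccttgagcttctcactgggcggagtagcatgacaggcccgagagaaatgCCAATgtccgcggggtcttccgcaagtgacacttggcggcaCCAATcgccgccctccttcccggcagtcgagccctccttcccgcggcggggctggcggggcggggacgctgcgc
In Hmgcs1 the reverse complement of TGACG began 147 bases and the sterol regulatory element core 137 bases before the start. In Sc5d the 2 matches lay 54 and 24 bases before it. The Dhcr7 window shown is 1 of its 3 windows and the only one with a CCAAT box, and the Osbp window held 5 CCAAT boxes and no TGACG.

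**Figure D1:**
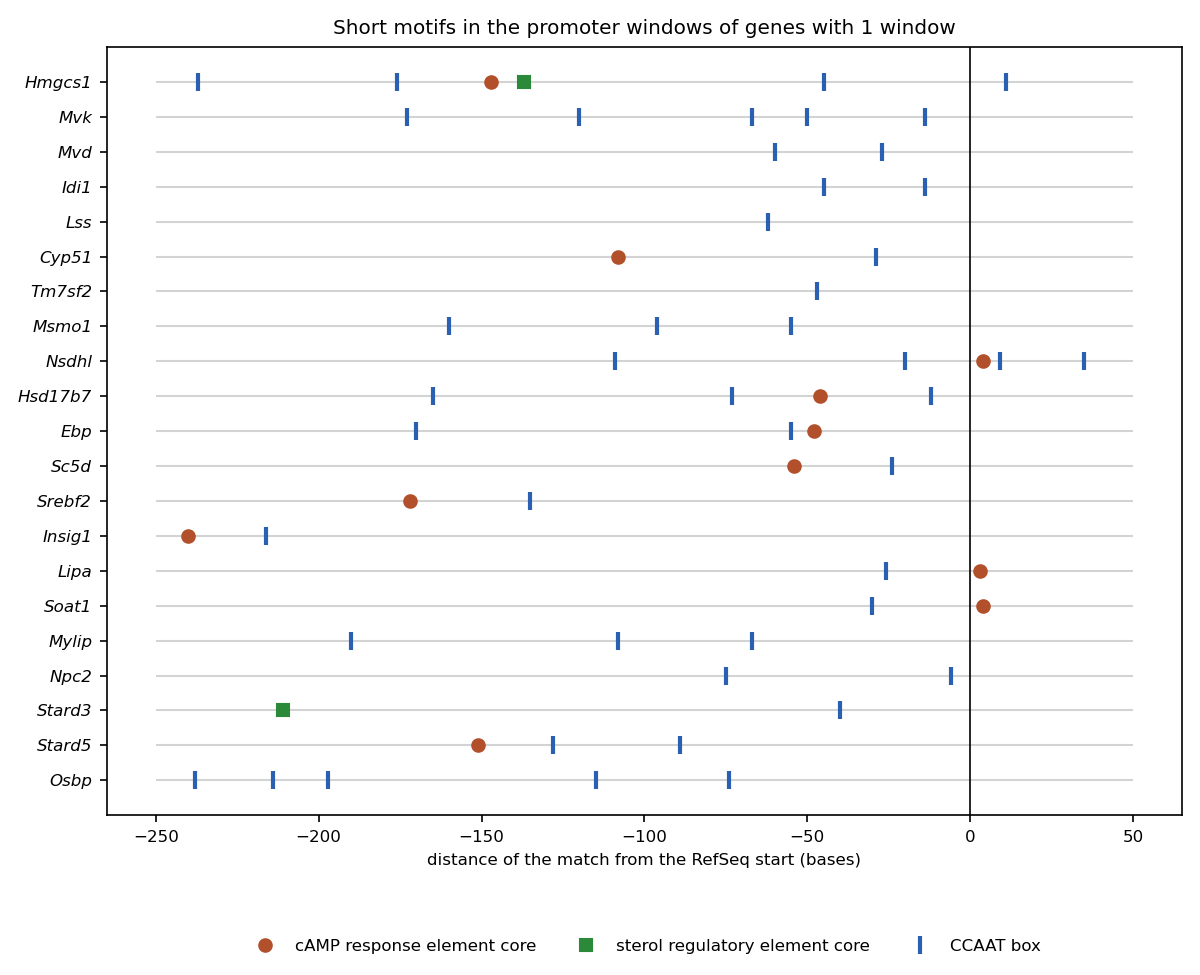
Positions of 3 short motifs in the promoter windows of the 21 genes with 1 window and at least 1 match. The horizontal axis is the distance of the match from the RefSeq start in bases, grey lines span each window, circles mark the TGACG core, squares the sterol regulatory element core and blue bars the CCAAT box. CCAAT boxes are present in every row, and squares stand in the rows of Hmgcs1 and Stard3 alone.

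The arrays themselves differed in ways the genotype labels do not give, and these touch the cholesterol genes. Crem (probe 10457205) had a mean of 7.36 ± 0.51 (SD, n = 5) on the KO arrays and 7.54 ± 0.37 (SD, n = 5) on the WT arrays, a difference of -0.18 (two-sided exact permutation p = 0.516), so its level did not check the labels. A probe outside the disrupted part would check nothing. Cortex markers were bright on every array (list mean levels 12.4 to 13.0 over 8 genes). Fat transcripts were most abundant on KO 1 and KO 3: the mean of 11 adipocyte markers stood 2.32 and 1.98 above its average there, against -1.61 to 0.29 on the other 8 arrays. KO 1 also had hepatocyte markers at 4.79 (7 genes, -1.38 to 1.18 elsewhere) and chromaffin markers at -3.08 (8 genes, -0.27 to 0.77 elsewhere). The labels give the mice of KO 1 and KO 3 animal numbers well below those of the other 8. Whether this marks a separate set of mice was not tested. KO 2, KO 5 and WT 3 stood apart on the first principal component (53.8% of the variance), at 60.7 to 69.4 against at most 17.4. In whole-gland RNA, fewer cells of a type and less RNA per cell cannot be told apart.

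KO and WT were compared to ask whether loss of Crem shifts the cholesterol genes. None of the 34 genes passed the limma test at an adjusted p of 0.05 over all 25664 probes, where 0 probes (0%) passed, and every adjusted p was 1.00. At an unadjusted p of 0.05, 1 of 34 genes was higher in KO (Stard4) and 2 were lower (Dhcr7 and Osbp), while over all 19661 genes 0.732% were higher and 2.88% lower. In the fit with batch as a block the genes below that threshold were Stard4 and Insig2 (higher) and Scap (lower), 3 of 34, against 7.5% of all genes, and Dhcr7 and Osbp were no longer among them. The KO and WT levels overlapped for all 34 genes, while 0.717% of all genes had groups that did not overlap. The smallest two-sided p that the 252 regroupings of 5 and 5 mice allow is 0.00794, so a single gene could pass that test alone but no correction over all genes.

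The spread between mice was wide. The median SD over the 10 arrays was 0.44 for the 34 genes and 0.26 for all genes. The 2 sets differ in brightness: even Hsd17b7, the dimmest of the 34, had a higher mean than 55.1% of all genes. SD was not compared at matched brightness. It was 0.63 in the mevalonate arm, 0.60 in SREBP control, 0.48 in the sterol arm, 0.34 in transport and efflux and 0.27 in uptake and storage. Of the single genes, Lipe (SD 1.00), Pmvk (0.98), Insig1 (0.98), Hmgcs1 (0.88) and Sc5d (0.76) varied most. SD among all genes was lower than that of Lipe in 97.1% of them.

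**Figure D2:**
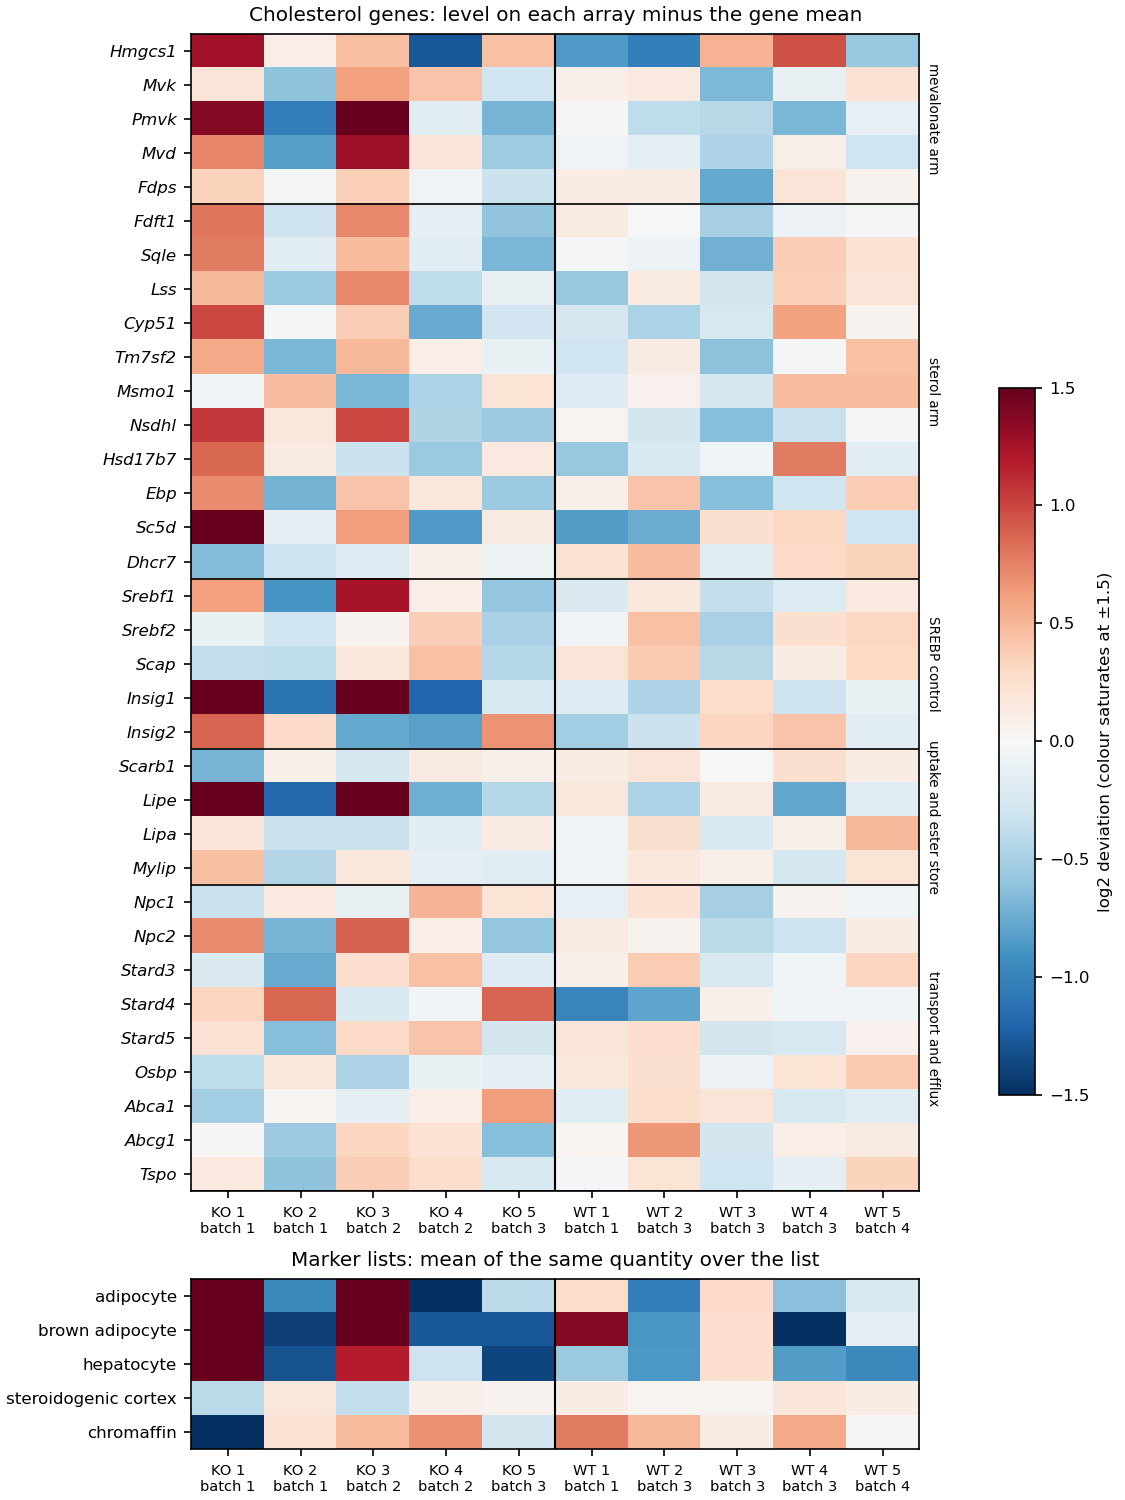
Level of each of the 34 cholesterol genes on each array minus the gene's mean over 10 arrays (log2, red above and blue below, colour saturating at 1.5), with the same quantity averaged over 5 marker lists underneath. Columns are arrays with their batch and the vertical line separates KO from WT. KO 1 and KO 3 are red across most synthesis genes and in the adipocyte row, and the cortex row stays between -0.40 and 0.18.

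The first steps of synthesis, the mevalonate arm, were higher in KO in 5 of 5 measured genes by their means (median difference 0.34), and none passed the test. Over all genes 46.8% were higher in KO, with a median difference of -0.01. With KO 1 and KO 3 left out, 5 of 5 genes were lower in KO (median -0.09), with 41.4% of all genes higher. KO 1 or KO 3 was the highest array for each of these 5 genes, so leaving both out lowers the KO means by that choice alone. With batch as a block 1 of 5 was higher (median -0.07).

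Pmvk, phosphomevalonate kinase (probe 10493548), stood at 10.28, 7.87, 11.00, 8.75 and 8.20 on KO 1 to KO 5, and at 8.92, 8.52, 8.49, 8.22 and 8.79 on WT 1 to WT 5. Above every other array lay KO 1 and KO 3, and below every WT array lay KO 2 and KO 5, a span of 8.76-fold over the 10 arrays. Mice of one genotype differed by more than the group means, which were 0.63 apart (standard error 0.55, exact permutation p = 0.405). The difference was -0.04 with batch as a block and -0.31 without KO 1 and KO 3. Mvd, the decarboxylase that makes isopentenyl diphosphate (probe 10582310), stood at 9.09, 7.53, 9.65, 8.55 and 7.83 on the KO arrays and at 8.30, 8.22, 7.89, 8.45 and 8.06 on the WT arrays. KO 1 and KO 3 were again the highest 2 arrays. Its difference was 0.34 (standard error 0.36, exact permutation p = 0.421), and -0.22 without them.

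Hmgcs1, the cytosolic HMG-CoA synthase whose promoter holds the sterol regulatory element core, had another order of arrays. It stood at 11.32, 10.16, 10.50, 8.78 and 10.49 on the KO arrays and at 9.20, 9.03, 10.57, 11.01 and 9.48 on the WT arrays (probe 10412466). KO 1 and WT 4 were the highest and KO 4 and WT 2 the lowest of a 5.8-fold range, which the KO arrays spanned by themselves, and the WT arrays ran from 9.03 to 11.01. The difference of 0.39 (standard error 0.50, exact permutation p = 0.508) was 1.53 within batch 1, where 2 KO arrays met 1 WT array, and 0.29 within batch 3. Mvk, mevalonate kinase, differed by 0.14 (standard error 0.25), with means of 8.95 ± 0.51 in KO and 8.81 ± 0.36 in WT (n = 5 each, SD). Fdps, which makes farnesyl diphosphate, differed by 0.12 (standard error 0.21), with means of 10.96 ± 0.29 in KO and 10.84 ± 0.40 in WT (n = 5 each, SD).

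In the sterol arm 9 of 11 genes were higher in KO by their means, with a median of 0.10, and none passed the test after adjustment. Without KO 1 and KO 3, 11 of 11 were lower (median -0.25). With batch as a block 7 of 11 were higher (median 0.16), with 40.1% of all genes higher. Dhcr7, the reductase that performs the last step to cholesterol in one branch of the pathway (probe 10559312), ran against the arm. It stood at 11.31, 11.64, 11.75, 12.03 and 11.88 on the KO arrays and at 12.19, 12.42, 11.80, 12.24 and 12.30 on the WT arrays. WT 3 lay among the KO arrays, and the other 4 WT arrays lay above all 5 KO arrays. The difference was -0.47 (standard error 0.16, exact permutation p = 0.0238, limma adjusted p = 1.00). Its sign was the same in the block fit (-0.48), in batch 1 (-0.72) and batch 3 (-0.27) alone, and without KO 1 and KO 3 (-0.34). KO 1, the array with the fewest chromaffin and the most hepatocyte transcripts, had the lowest level.

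Nsdhl, a decarboxylating dehydrogenase of the demethylation steps, stood at 11.13, 10.25, 11.07, 9.62 and 9.53 on the KO arrays and at 10.11, 9.80, 9.43, 9.73 and 10.04 on the WT arrays. Only KO 1 and KO 3 stood about 1 log2 unit above the WT arrays, while KO 4 and KO 5 lay inside the WT range. Its difference of 0.50 (standard error 0.33, exact permutation p = 0.246) became -0.02 without KO 1 and KO 3.

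Sc5d, the sterol desaturase before Dhcr7 (probe 10592585), stood at 11.65, 9.92, 10.70, 9.22 and 10.21 on the KO arrays and at 9.23, 9.32, 10.31, 10.38 and 9.78 on the WT arrays. KO 4, WT 1 and WT 2 were the 3 lowest arrays, as for Hmgcs1. The difference was 0.53 (standard error 0.42, exact permutation p = 0.317), with 1.55 within batch 1 and 0.20 within batch 3. Cyp51, the lanosterol demethylase, stood at 9.32, 8.31, 8.69, 7.57 and 8.04 on the KO arrays and at 8.08, 7.85, 8.08, 8.93 and 8.38 on the WT arrays. KO 1 and WT 4 were highest and KO 4 lowest, the order at the ends that Hmgcs1 also had. Its difference was 0.12 (standard error 0.31, exact permutation p = 0.762).

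The other 7 genes of the arm differed by -0.21 to 0.20. Msmo1, a methyl sterol oxidase, was the 1 of them with a lower KO mean (-0.21, standard error 0.24) and had its highest level on KO 2. Its sign turned in the block fit (0.25) and in batch 1 (0.40) and batch 3 (0.12) alone. Fdft1 and Sqle, which make squalene and its epoxide, differed by 0.20 and 0.09, and both were highest on KO 1. Lss, the cyclase that closes the rings, differed by 0.07 and was highest on KO 3. Tm7sf2, Hsd17b7 and Ebp, a reductase, a ketone reductase and an isomerase, differed by 0.15, 0.10 and 0.01, and each was highest on KO 1.

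**Figure D3:**
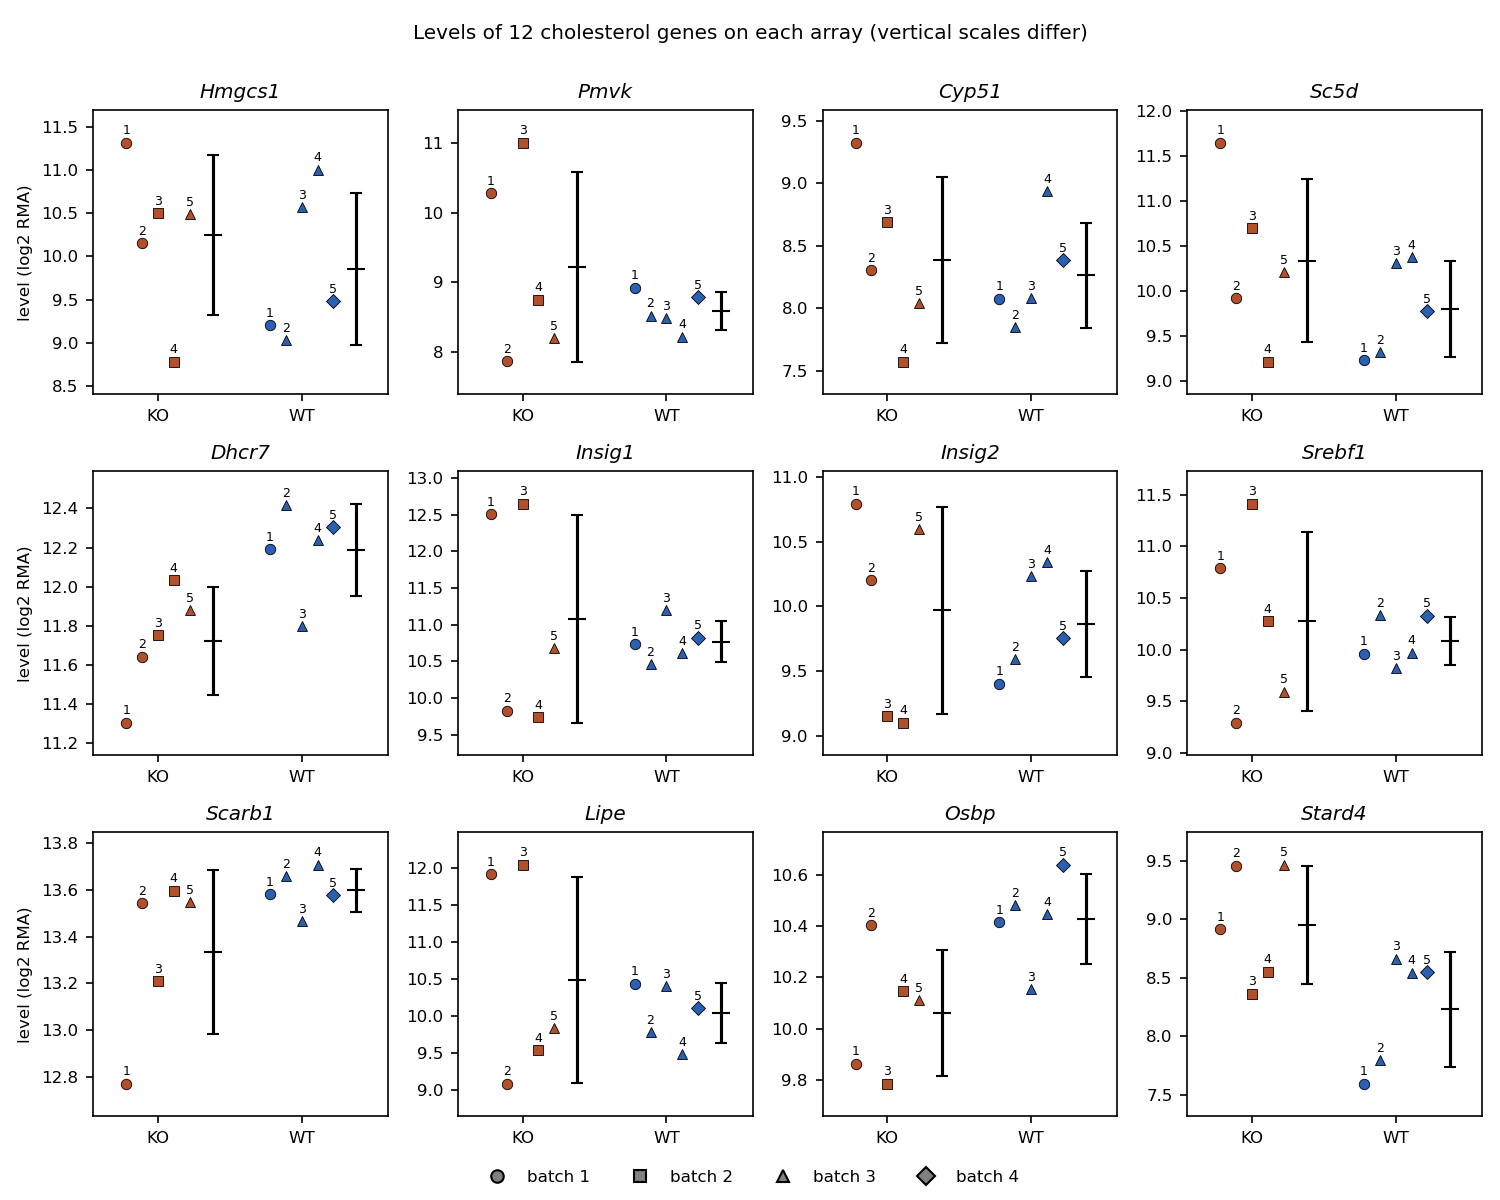
Level (log2 RMA) of 12 cholesterol genes on each array, KO in orange and WT in blue, with the replicate number beside each point, the batch as the marker shape and black bars for the mean ± SD of 5 arrays. KO 1 and KO 3 sit above the rest for Pmvk, Insig1, Srebf1 and Lipe and below the rest for Scarb1 and Osbp, and only WT 3 among the WT arrays of Dhcr7 lies within the KO range.

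Among the regulators 3 of 5 genes were higher in KO (median 0.10), and none passed the test. With KO 1 and KO 3 left out 1 of 5 was higher (median -0.24), and with batch as a block 2 of 5 were (median -0.20). Insig1, the retention protein that SREBP itself induces (probe 10520362), stood at 12.51, 9.82, 12.65, 9.74 and 10.68 on the KO arrays and at 10.74, 10.47, 11.20, 10.61 and 10.82 on the WT arrays. KO 1 and KO 3 were more than 1 log2 unit above every other array, and KO 2 and KO 4 were below every WT array. The difference of 0.31 (standard error 0.57, exact permutation p = 0.595) turned to -0.69 without KO 1 and KO 3. Srebf1, whose SREBP-1c form drives fatty acid synthesis, stood at 10.79, 9.29, 11.41, 10.27 and 9.59 on the KO arrays and at 9.96, 10.34, 9.82, 9.97 and 10.33 on the WT arrays. The same 2 KO arrays were on top. Its difference was 0.19 (standard error 0.36, exact permutation p = 0.643), and it turned to -0.36 without them and to -0.20 in the block fit.

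Insig2, the retention protein that SREBP does not induce, was ordered differently from Insig1. It stood at 10.79, 10.20, 9.15, 9.10 and 10.60 on the KO arrays and at 9.40, 9.59, 10.24, 10.34 and 9.76 on the WT arrays. KO 3, the highest array for Insig1, was next to the lowest here. The difference was 0.10 (standard error 0.36, exact permutation p = 0.817) and 0.80 (standard error 0.26) with batch as a block. Srebf2, the main factor of cholesterol synthesis, stood at 9.72, 9.52, 9.88, 10.19 and 9.34 on the KO arrays and at 9.77, 10.26, 9.34, 10.06 and 10.13 on the WT arrays. KO 5 and WT 3 were its lowest arrays. Its difference was -0.18 (standard error 0.21, exact permutation p = 0.429). Scap, the escort of the SREBP precursors, stood at 9.88, 9.85, 10.40, 10.68 and 9.81 on the KO arrays and at 10.43, 10.63, 9.83, 10.36 and 10.54 on the WT arrays. KO 1, KO 2, KO 5 and WT 3 formed its lower end. Its difference was -0.23 (standard error 0.21, exact permutation p = 0.397), and -0.51 with batch as a block.

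For uptake and ester storage 1 of 4 genes was higher in KO (median -0.12), and none passed the test. None of the 4 was higher without KO 1 and KO 3 (median -0.25), and 2 of 4 were in the block fit (median -0.02). Scarb1, which encodes SR-BI, stood at 12.77, 13.54, 13.21, 13.60 and 13.55 on the KO arrays and at 13.58, 13.66, 13.46, 13.71 and 13.58 on the WT arrays. The lowest 2 arrays were KO 1 and KO 3, and the other 3 KO arrays lay inside the WT range. Its difference of -0.26 (standard error 0.16, exact permutation p = 0.119) was -0.04 without KO 1 and KO 3. The cortex marker list was also lowest on those arrays (-0.40 and -0.37), and its part in the Scarb1 difference was not tested.

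Lipe, hormone-sensitive lipase (probe 10561031), which adipocytes also express strongly, was the most variable of the 34 genes. It stood at 11.93, 9.08, 12.05, 9.54 and 9.83 on the KO arrays and at 10.44, 9.78, 10.40, 9.48 and 10.10 on the WT arrays. The same KO 1 and KO 3 stood more than 1 log2 unit above the rest. The difference was 0.44 (standard error 0.58, exact permutation p = 0.468) and -0.56 without them. Lipa, lysosomal acid lipase, stood at 11.02, 10.51, 10.52, 10.69 and 10.97 on the KO arrays and at 10.78, 11.08, 10.62, 10.93 and 11.33 on the WT arrays. The groups overlapped over most of their range, and KO 1 and KO 3 did not stand together. Its difference was -0.20 (standard error 0.16, exact permutation p = 0.254). Mylip, the ubiquitin ligase that degrades lipoprotein receptors, differed by -0.04 (standard error 0.17), with means of 8.02 ± 0.34 in KO and 8.06 ± 0.19 in WT (n = 5 each, SD).

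Transport and efflux held the other 2 genes below an unadjusted p of 0.05, in opposite directions, and the list's median was 0.01 with 5 of 9 genes higher in KO. The median was -0.25 in the block fit and -0.20 without KO 1 and KO 3, each with 3 of 9 higher. Stard4, a soluble START-domain sterol carrier and SREBP target (probe 10458033), stood at 8.92, 9.46, 8.37, 8.55 and 9.46 on the KO arrays and at 7.60, 7.80, 8.66, 8.54 and 8.55 on the WT arrays. KO 2 and KO 5 were highest, WT 1 and WT 2 lowest, and KO 3 lay below the other 3 WT arrays. The difference was 0.72 (standard error 0.29, exact permutation p = 0.0635, limma adjusted p = 1.00). Fitting batch as a block gave 1.35, and batches 1 and 3 alone gave 1.59 and 1.13. Without KO 1 and KO 3 it was 0.93, and without KO 2, KO 5 and WT 3, the arrays apart on the first component, it was 0.49. What that component measures was not tested.

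Osbp, oxysterol-binding protein, which exchanges sterol for a phosphoinositide between membranes (probe 10461690), stood at 9.86, 10.40, 9.79, 10.15 and 10.11 on the KO arrays and at 10.41, 10.48, 10.15, 10.45 and 10.64 on the WT arrays. Lowest were KO 1 and KO 3, and WT 3 was the 1 WT array that lay among the KO arrays. The difference was -0.37 (standard error 0.14, exact permutation p = 0.0159, limma adjusted p = 1.00). Fitting batch as a block gave -0.26, batches 1 and 3 alone gave -0.28 and -0.25, and it was -0.21 without KO 1 and KO 3.

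Npc2, the lysosomal sterol carrier, stood at 11.75, 10.34, 11.93, 11.14 and 10.45 on the KO arrays and at 11.16, 11.09, 10.64, 10.73 and 11.15 on the WT arrays. KO 1 and KO 3 were its highest 2 arrays, as for Pmvk and Mvd. Its difference was 0.17 (standard error 0.31, exact permutation p = 0.635). Abcg1, a sterol exporter, stood at 8.86, 8.30, 9.16, 9.06 and 8.20 on the KO arrays and at 8.87, 9.49, 8.57, 8.94 and 8.98 on the WT arrays. KO 2, KO 5 and WT 3 were its lowest arrays. Its difference was -0.25 (standard error 0.23, exact permutation p = 0.341). The remaining 5 genes differed by -0.19 to 0.17. Npc1, the membrane partner of Npc2, differed by 0.17 (standard error 0.18). Abca1, the exporter to apolipoprotein A-I, differed by 0.05 (standard error 0.20). Stard3 and Stard5, further START-domain proteins, differed by -0.19 and 0.01, and Tspo, the outer mitochondrial translocator protein, by -0.02.

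**Figure D4:**
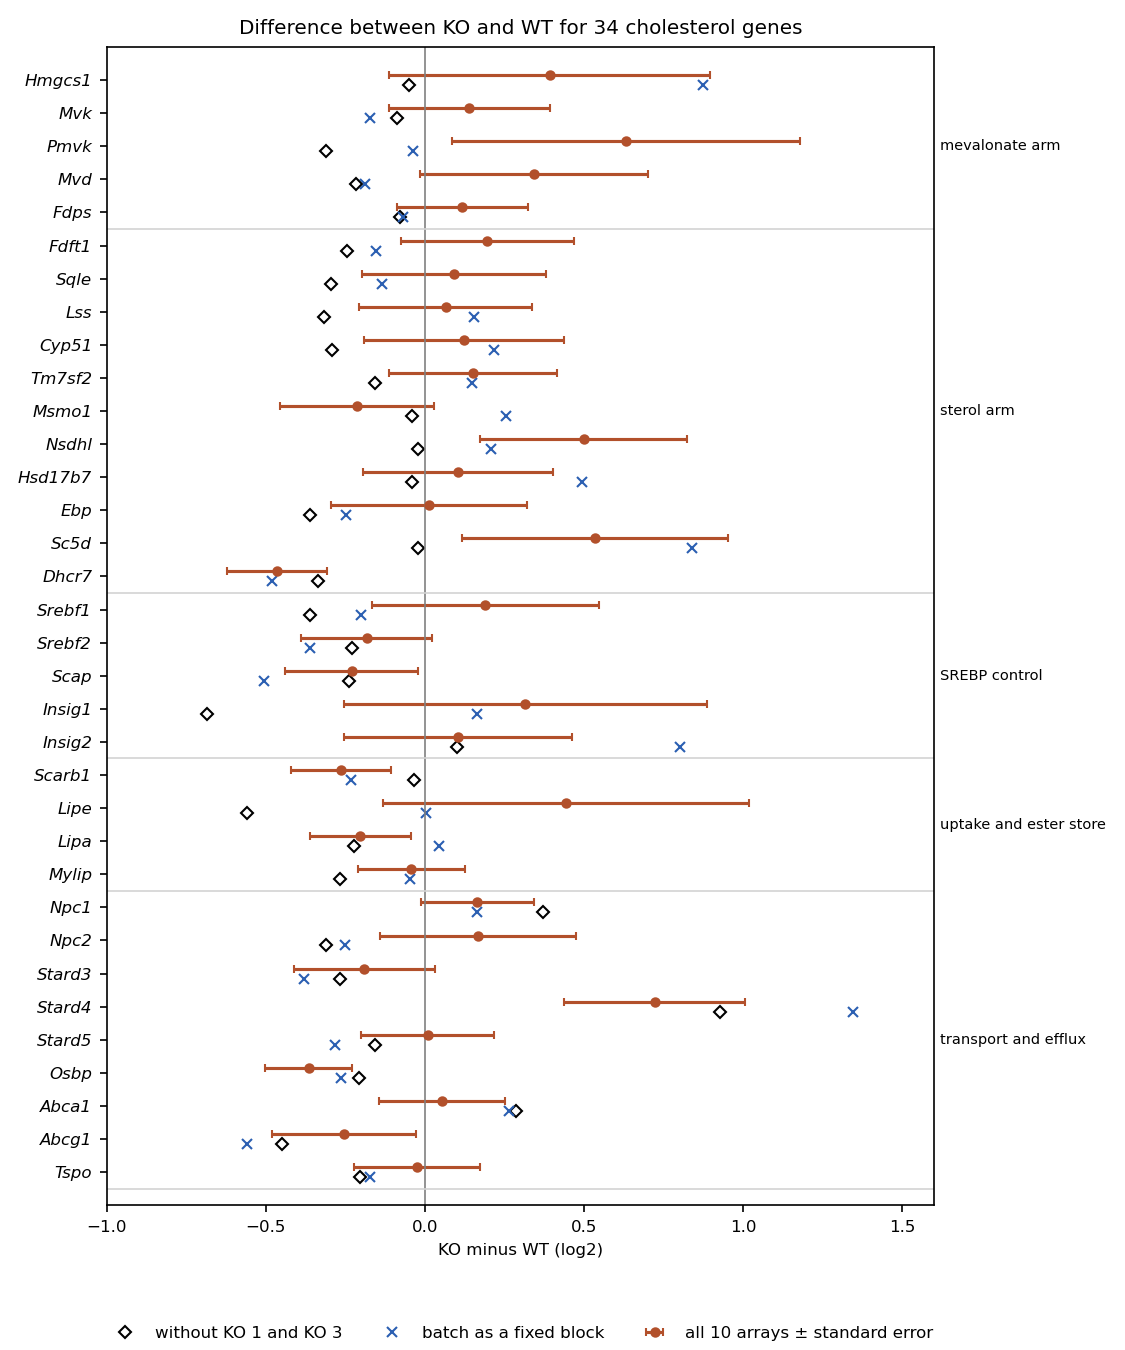
Difference KO minus WT (log2) for the 34 cholesterol genes, with all 10 arrays (circles, bars for the standard error), without KO 1 and KO 3 (diamonds) and with batch as a fixed block (crosses). The diamonds of all 16 synthesis genes lie below 0, and Stard4 lies above 0 in all 3 sets. KO 1 or KO 3 was the highest array in 14 of the 16, so leaving both out lowers most of their KO means by that choice alone.

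High levels of synthesis genes on KO 1 and KO 3 were shared by many genes of the group. Both arrays were above the other 8 in 14 of 34 cholesterol genes (41.2%), against 8.68% of all genes. The 14 were Pmvk, Mvd, Fdps, Fdft1, Sqle, Lss, Tm7sf2, Nsdhl, Ebp, Sc5d, Srebf1, Insig1, Lipe and Npc2. Both were below the other 8 in Scarb1 and Osbp (5.88%, against 7.28% of all genes). One or the other was the highest array in 14 of 16 synthesis genes and in 21 of 34 genes (61.8%), against 27.8% of all genes. The list mean of the mevalonate arm stood 0.78 and 0.96 above its average on KO 1 and KO 3, and between -0.48 and 0.09 on the other 8 arrays. That of the sterol arm stood at 0.65 and 0.33, against -0.35 to 0.22. These are the arrays with the highest adipocyte and hepatocyte markers, whose part in the synthesis levels was not tested. KO 4 came from the same batch as KO 3 and had the lowest adipocyte mean (-1.61), with the 16 synthesis genes together at -0.27. On KO 2, KO 5 and WT 1 to WT 5 the adipocyte mean stood at -0.97, -0.40, 0.28, -1.03, 0.29, -0.63 and -0.23. On the same arrays the 16 synthesis genes stood at -0.28, -0.24, -0.18, -0.12, -0.35, 0.18 and 0.05. WT 3, the lowest in synthesis, is also one of the 3 arrays apart on the first component. How the 2 measures relate was not tested.

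**Figure D5:**
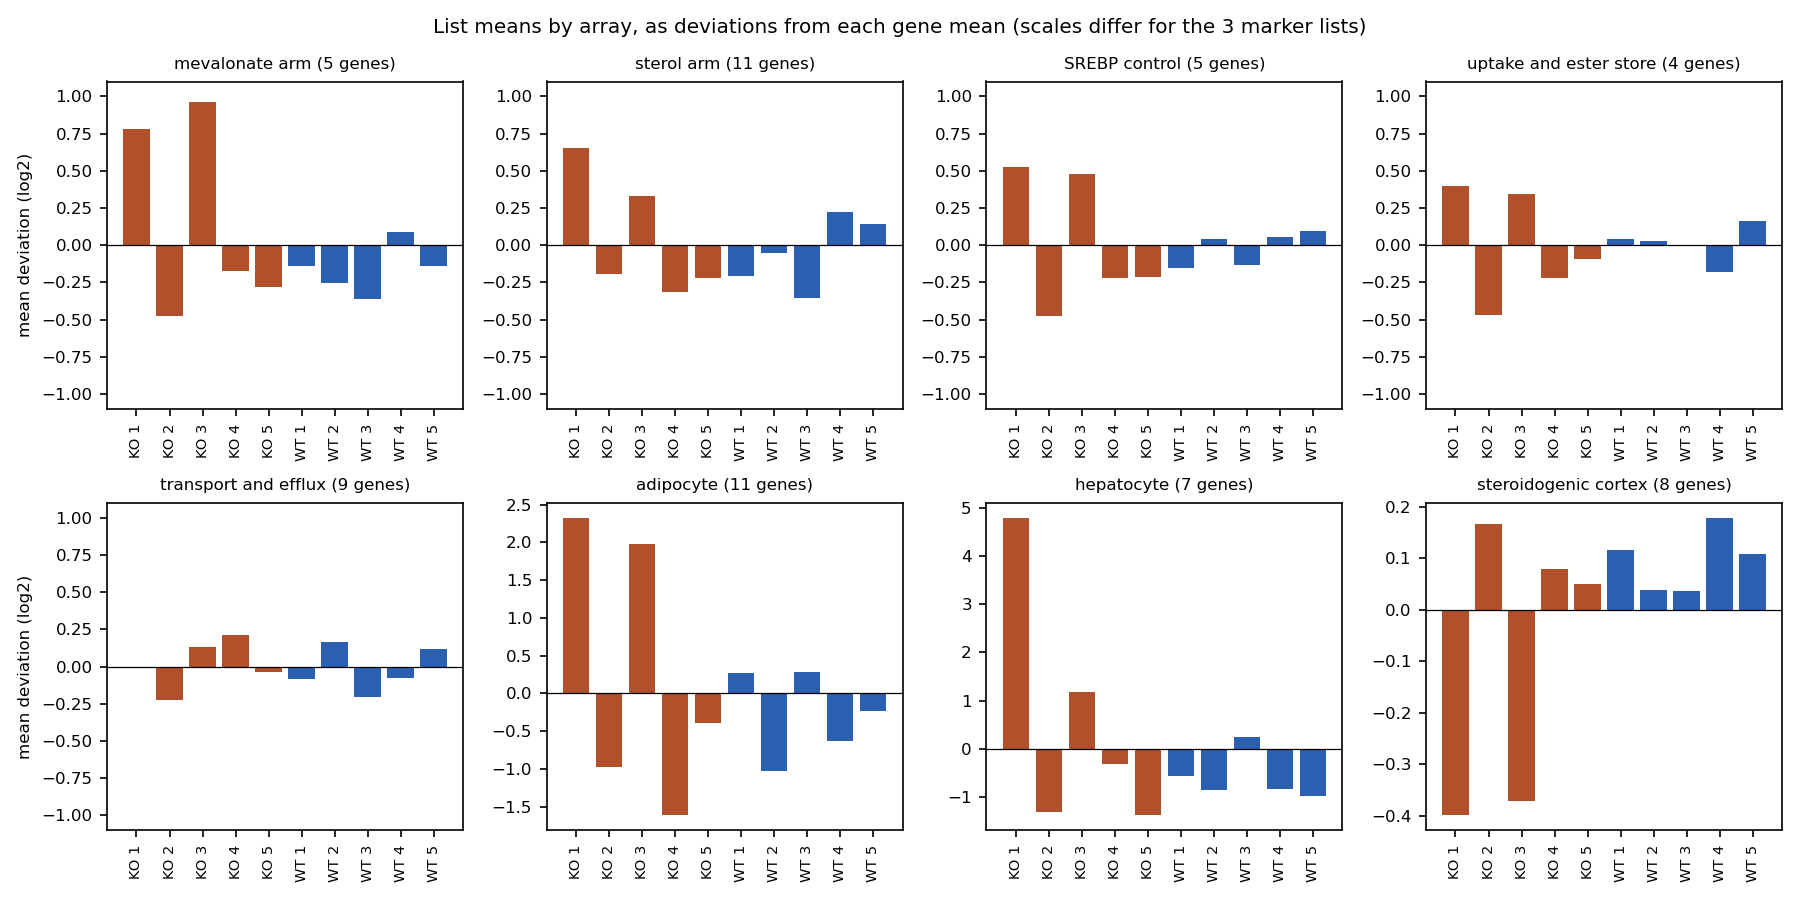
Mean deviation from each gene's average (log2) on each array for the 5 lists of cholesterol genes and 3 marker lists, KO in orange and WT in blue. The 2 tallest bars in the mevalonate arm, sterol arm and adipocyte panels are KO 1 and KO 3, and the same arrays have the 2 lowest bars in the cortex panel.

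The arrays apart on the first component were low in a partly different set of genes. KO 2, KO 5 and WT 3 were all below the other 7 arrays in 11 of 34 cholesterol genes (32.4%), against 18.1% of all genes. These were Mvk, Mvd, Fdft1, Ebp, Srebf1, Srebf2, Scap, Npc2, Stard5, Abcg1 and Tspo. They were all above the other 7 in 0 of 34, against 12.2% of all genes. Without these 3 arrays 9 of 34 genes (26.5%) had an unadjusted p under 0.05, while the share over all genes was 13.2% in that fit and 3.61% over all arrays, and no probe passed after adjustment (smallest adjusted p = 0.35).

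The wider pathway was followed in 47 of 56 further genes, of which 0 passed after adjustment. Among 8 other sterol and isoprenoid genes the median difference was -0.12 with 3 higher in KO, and none had an unadjusted p under 0.05. Among 27 other uptake and transport genes the median was -0.09 with 10 higher. Of these 27, 1 was below that threshold (3.7%, against 3.61% of all genes). It was Osbpl2, a relative of Osbp (-0.23, standard error 0.09). Star, which moves cholesterol into mitochondria, differed by -0.30 (standard error 0.15). Of 12 fatty acid and other SREBP targets 7 were higher, with a median of 0.02, and none was below that threshold. Their list mean, like that of the synthesis arms, was highest on KO 3 (0.79) and KO 1 (0.39).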

How the data were processed

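Whole adrenal RNA of 10 mice, numbered as separate animals in the labels, was measured on 10 arrays, and their number limits the precision. The deposited values are log2 levels per probe, which the authors made with RMA per the submitters' processing notes. RMA corrects background, normalizes by quantiles and summarizes probes. Its version, its filters and whether batches were corrected were not given in the sources used here. Quantile normalization makes every level relative to the other genes of the array. Of 25689 probes with values, 25 controls were left out, leaving 25664, of which 20777 carry 1 gene symbol (19661 genes).

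Genotypes were compared by linear models (lmFit and eBayes of limma 3.58.1, R 4.3.3, two-sided) with genotype as the single term, with Benjamini-Hochberg adjustment over 25664 probes. Single genes were also given an exact permutation test over 252 regroupings. Batch entered as a fixed or a random block (consensus correlation 0.172), and genotype was estimated within batches 1 and 3. Other alternatives were a median shift, repeated quantile normalization, the brighter probes alone, eBayes with trend and robust, array weights, the mean of a gene's probes, an adjusted p under 0.01, and fits without single arrays or without KO 1 and KO 3. The fit without KO 2, KO 5 and WT 3 was chosen after seeing the data. That without KO 1 and KO 3 was planned, but with earlier results of these data known. It takes out arrays that were high in many of these genes. It therefore lowers most KO means of the synthesis genes by that choice alone. The fit was tested on simulated data with noise drawn independently for each probe. Such noise does not copy the spread that genes shared between these arrays.

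The genes and lists were chosen with earlier results of these data known. Values on all arrays were given for the 3 genes of each list with the smallest p and the 3 with the largest SD, and Crem was added as the targeted gene. Figures were drawn with matplotlib 3.10.9.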

Additional observations from a re-analysis of the deposited data

Results flagged for a closer look

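Fdps on WT 3, at 10.13, lay far below the other 4 WT arrays, of which the nearest stood at 10.95. The gap was 0.86 of the whole WT range. Of 68 groups of 5 arrays examined (34 genes in each genotype) this was the 1 so marked, and chance marks about 1 in 20. WT 3 is one of the 3 arrays apart on the first principal component.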

How the results depend on the processing

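No probe and none of the 34 cholesterol genes passed an adjusted p of 0.05 under any alternative. The count of genes at an unadjusted p under 0.05 was 3 over all arrays, 1 within batch 1, 1 within batch 3 and 4 with array weights. It was 2 to 3 when single arrays were left out. Without KO 1 and KO 3 it was 2 (Insig1 lower, Stard4 higher). It was 9 without KO 2, KO 5 and WT 3. The shares over all genes moved too, from 3.61% over all arrays to 0.941% within batch 1, 1.04% within batch 3 and 13.2% without those 3 arrays. Without KO 1 and KO 3 the share was 2.68%. With batch as a block the count stayed at 3, but Dhcr7 and Osbp gave way to Insig2 and Scap. The median difference of the mevalonate arm moved from 0.34 to -0.17 within batch 3. That of the sterol arm moved from 0.10 to -0.25 without KO 1 and KO 3. That of SREBP control moved from 0.10 to -0.45 within batch 3 and to -0.24 without KO 1 and KO 3. That of transport and efflux moved from 0.01 to -0.25 with batch as a block, -0.20 within batch 1, -0.19 within batch 3 and -0.20 without KO 1 and KO 3. The cause of these moves was not tested. Of the 34 genes, 12 changed sign with batch as a block, 7 within batch 1, 18 within batch 3, 19 without KO 1 and KO 3, 5 without KO 2, KO 5 and WT 3, 1 to 8 when single arrays were left out (8 without KO 1, 7 without KO 3), and at most 2 under the alternative normalizations, filters and weights. Batches 2 and 4 hold 1 genotype each and add nothing to the within-batch values. No paired analysis was possible because the labels give no replicate numbers shared between KO and WT. No detection call or background signal came with the RMA values, so no probe was classed as absent.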
